A study of Rattus norvegicus with 9 samples.

Results

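The AP-1 genes Fos, Fosb, Fosl1, Fosl2, Jun, Junb and Jund and the immediate early gene Egr1 were followed in INS-1E cells, a rat insulinoma line that secretes insulin. The members were taken by gene symbol, and all 8 were found once among the 20645 genes of the deposited table. Fosb and Fosl1 lie on chromosome 1, Jun on 5, Fos and Fosl2 on 6, Jund on 16, Egr1 on 18 and Junb on 19, and each is listed with 1 transcript except Fosb, with 2. Cells were kept for 24 h with fatty acid-free BSA (the control), with 0.5 mM palmitic acid (PA), or with 0.5 mM PA and 50 µM cyanidin-3-O-glucoside (PA + C3G), an anthocyanin pigment of dark fruits. Each of the 3 groups had 3 RNA-seq libraries. The labels give the time and the agents, and the doses come from the methods of the study. All libraries come from 1 tumour-derived line at 1 time point, no group received C3G without PA, and the labels do not say whether the replicates were separate cultures. The methods state for the experiments in general that replication was biological. For these libraries they give 3 replicate samples per group without saying of what kind. The p-values thus measure the spread between these samples.

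Fos and Jun proteins carry a basic leucine zipper (bZIP), through which they pair and bind DNA as the transcription factor AP-1. Jun proteins can pair with each other or with a Fos protein, whereas Fos proteins need a Jun or another bZIP partner. Egr1 is a zinc finger transcription factor. Most of these genes are immediate early genes, which respond to a stimulus within minutes through kinase cascades and factors already present in the cell, and whose mRNA is soon lost again. Jund is the exception, being expressed steadily in many cell types. In beta cells, glucose and calcium influx are well known to induce Fos, Junb and Egr1. A sample taken at 24 h therefore measures the later level of these transcripts, and the early wave was not sampled.

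The libraries held between 45559993 and 66730721 estimated counts. A count of 4 was seen 2.44 times as often as the mean of counts of 3 and 5. The number of independent fragments may thus be smaller than the counts, and it was not measured. All 10 beta cell markers were present at a mean of at least 1 FPKM (fragments per length of transcript and per depth of library), and their summed level was 50831 ± 684 FPKM with BSA, 26654 ± 637 with PA and 55651 ± 3981 with PA + C3G (SD, n = 3 each). Ins1 and Ins2 made up most of this sum. With PA 7 of the 10 markers fell, 1 rose (Chgb, log2 fold change 1.27) and 2 were not called. Of all genes tested 25.2% were called lower and 25.8% higher. With C3G against PA 9 rose, 0 fell and 1 was not called, beside 11.1% of all genes called higher and 10.2% lower. Against BSA, 4 were higher with PA + C3G, 4 were not called, and Ins2 (0.531-fold) and Slc2a2 (0.352-fold) were lower. In that comparison 19.0% of all genes were called higher and 17.9% lower. None of the 5 endothelial, stromal and immune markers in the table reached a mean of 1 FPKM. Gcg (glucagon) did as the sole one of 3 markers of other islet cells, and Krt7 and Sox9 did among 6 acinar and ductal markers. The summed level of the other islet markers was 9.55 to 31.9 FPKM with BSA, 2.68 to 7.01 with PA and 5.37 to 23.1 with PA + C3G, and that of the acinar and ductal markers 84.1 to 122, 91.2 to 128 and 105 to 153. The part of these shifts in the results was not tested.

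The promoters of Junb and Jund are printed because Junb was the member called with PA and Jund was the most abundant. The 250 bases upstream of the annotated start come from RefSeq on build GRCr8, for Junb at chr19:40080876-40081125 on the + strand and for Jund at chr16:18769772-18770021 on the - strand, 5′ to 3′ toward the start. Capitals mark matches to the motifs given next.
Junb: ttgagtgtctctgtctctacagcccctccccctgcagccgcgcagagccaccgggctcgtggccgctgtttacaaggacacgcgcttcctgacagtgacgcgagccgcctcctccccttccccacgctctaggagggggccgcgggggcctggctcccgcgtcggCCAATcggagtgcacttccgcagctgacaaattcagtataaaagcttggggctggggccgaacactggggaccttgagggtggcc
Jund: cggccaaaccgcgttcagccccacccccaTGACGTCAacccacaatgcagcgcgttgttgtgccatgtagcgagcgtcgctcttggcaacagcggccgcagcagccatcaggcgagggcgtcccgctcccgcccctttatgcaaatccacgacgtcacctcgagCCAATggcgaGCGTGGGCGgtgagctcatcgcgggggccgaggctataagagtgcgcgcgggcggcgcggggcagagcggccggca

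The motifs searched on both strands were the cAMP response element TGACGTCA, the AP-1 site TGACTCA, the CCAAT box, the EGR sites GCGTGGGCG and GCGGGGGCG, and the CArG box bound by serum response factor. The upstream windows of 6 of the 8 members were matched, all but Fos and Jun. CCAAT stood 85 to 81 bases before the start in Junb and 86 to 82 bases before it in Jund, and Egr1 also held 1 match. This motif is common, being present in 34.0% of all 33469 RefSeq promoter windows. TGACGTCA was matched once, in Jund, and is held by 1.59% of all windows. GCGTGGGCG was matched once in Jund (0.478% of all windows) and GCGGGGGCG once in Fosl2 (2.45%). Egr1 held 2 CArG boxes, 105 to 96 and 83 to 74 bases before its start, and 1.50% of all windows held at least 1. TGACTCA was found in none of the 6 windows and in 4.05% of all, and the windows of Fosb and Fosl1 held no match to any of these letters. A match describes the sequence and not binding.

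The 8 genes differed widely in level. Jund, the rather constant Jun protein that is often described as slowing growth, stood at rank 609 of 20645 by mean FPKM. Its level was 123, 112 and 122 FPKM in the 3 BSA libraries, 118, 111 and 117 in the PA libraries, and 124, 110 and 110 in the PA + C3G libraries. The 3 groups overlapped. Jun, the founding AP-1 subunit and the target of Jun N-terminal kinase, came next at rank 6151, followed by Egr1 at 7415 and Junb at 7464. The ranges of these 3 genes over the 9 libraries overlapped. They were 11.3 to 17.2 FPKM for Jun, 6.04 to 12.5 for Egr1 and 7.44 to 12.4 for Junb. Within each single library Jun lay above Junb, at a ratio of 1.03 to 1.86. The place of Egr1 was not fixed. It lay below Junb in BSA replicate 2 (6.04 against 7.44 FPKM) and above Jun in PA + C3G replicate 2 (12.5 against 11.3). Fosl2, which encodes the Fos-related antigen Fra-2, followed at rank 11224 with 1.66 to 3.54 FPKM, below every value of Junb and above every value of the other Fos genes.

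The 3 remaining Fos genes had low levels. Fos itself had 1.03, 0.684 and 0.566 FPKM with BSA, 0.948, 0.826 and 0.462 with PA, and 0.751, 1.18 and 1.15 with PA + C3G. Fosl1 (Fra-1) had 0.388, 0.230 and 0.200 FPKM with BSA, 0.556, 1.001 and 0.361 with PA, and 0.292, 0.480 and 0.253 with PA + C3G. Fosb had 0.199, 0.107 and 0.173 FPKM with BSA, 0.162, 0.227 and 0.334 with PA, and 0.103, 0.191 and 0.0953 with PA + C3G. The ranges of Fos and Fosl1 overlapped, as did those of Fosl1 and Fosb, while every value of Fos lay above every value of Fosb. These levels rest on 41 to 121 estimated counts per library for Fos, 20 to 115 for Fosl1 and 17 to 70 for Fosb. None of these 3 genes reached the mean of 1 FPKM required for the main test, so 5 of the 8 members were tested there, and values for Fos, Fosl1 and Fosb are from the same model fitted without that filter.

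**Figure D1:**
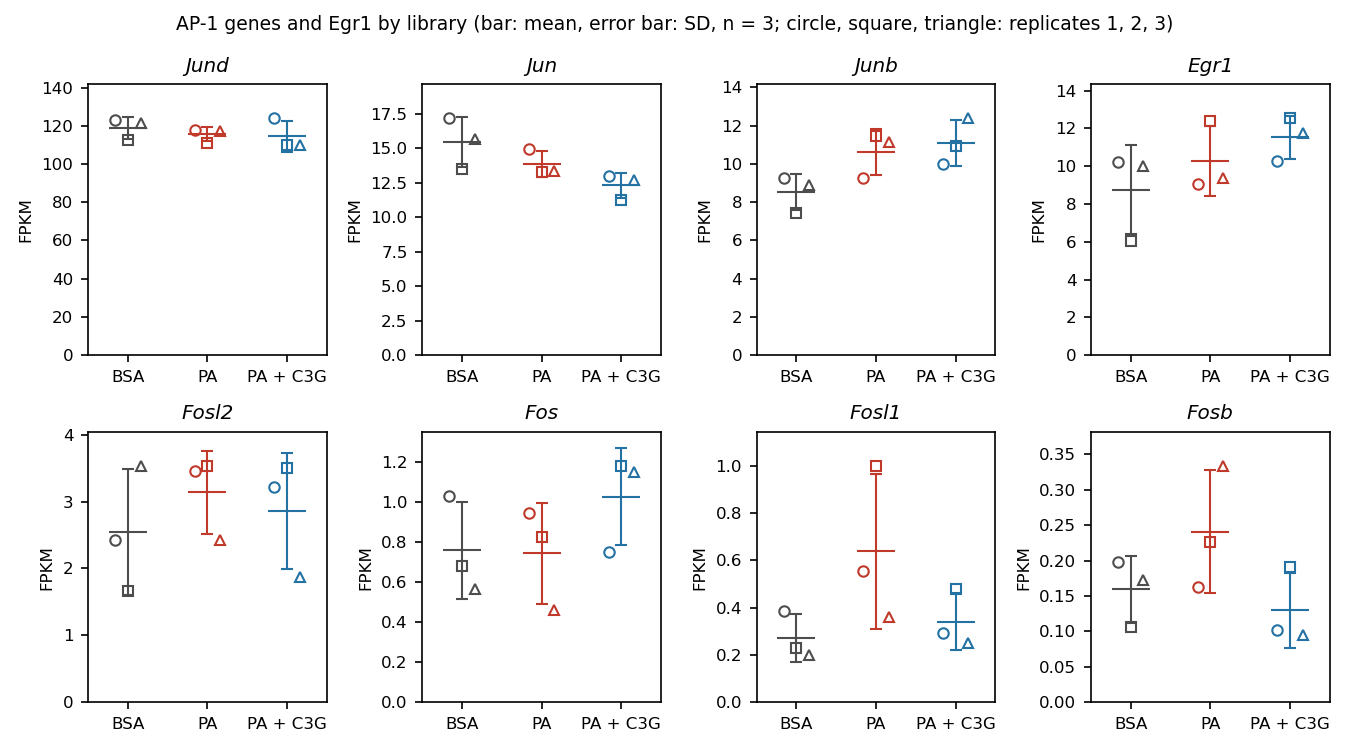
FPKM of each gene (vertical axes, each from 0) in the 3 libraries of BSA, PA and PA + C3G, with circles, squares and triangles for replicates 1, 2 and 3, a horizontal bar for the mean and error bars for the SD (n = 3). The Junb means are 8.53, 10.6 and 11.1 FPKM and the Jun means 15.5, 13.9 and 12.3, while the Jund groups overlap.

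PA versus BSA asked how the fatty acid load changed these transcripts. Junb, a Jun protein that is a weaker activator than Jun and can hold it in check, was the member that rose. Its level was 9.26, 7.44 and 8.87 FPKM with BSA (mean 8.53 ± 0.959, SD, n = 3) and 9.25, 11.5 and 11.2 with PA (10.6 ± 1.20). PA replicates 2 and 3 lay above all BSA libraries, while PA replicate 1 lay within them. The log2 fold change was 0.34 (SE 0.12, 95% interval 0.07 to 0.61), or 1.27-fold, with an adjusted p of 0.0399 in edgeR's quasi-likelihood test. In cultures, more RNA per cell and a change in which cells remain cannot be told apart. Thus 1 of the 5 members tested was called, beside 51.0% of all 12958 genes tested (25.8% higher and 25.2% lower), and 5 genes are too few to set against that share. None of the 5 met the study's rule for differentially expressed genes, a fold change above 2 with an unadjusted p under 0.05, which 7.56% of all genes tested met. The Junb call was lost without BSA replicate 2 (log2 fold change 0.24), BSA replicate 3 (0.36), PA replicate 2 (0.28), PA replicate 3 (0.31) or PA + C3G replicate 2 (0.34), and its adjusted p ran from 0.0133 to 0.141 over all alternatives.

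The other 4 tested members did not pass the test with PA. Egr1 had 10.2, 6.04 and 10.0 FPKM with BSA and 9.04, 12.4 and 9.37 with PA. The groups overlapped, with the lowest value in BSA replicate 2 and the highest in PA replicate 2, and the log2 fold change was 0.25 (SE 0.20, 95% interval -0.19 to 0.69, adjusted p = 0.314 in edgeR). Jun had 17.2, 13.5 and 15.7 FPKM with BSA and 15.0, 13.3 and 13.4 with PA, again overlapping, and its log2 fold change was -0.13 (SE 0.09, 95% interval -0.34 to 0.08, adjusted p = 0.267 in edgeR). Without BSA replicate 2, Jun passed the test with a log2 fold change of -0.23 (adjusted p = 0.0463 in edgeR, from 0.0463 to 0.653 over the alternatives). Jund had the tightest estimate, a log2 fold change of -0.019 with a 95% interval from -0.15 to 0.11, which bounds any change between 0.904-fold and 1.08-fold. The sign of this small value turned under TPM scaling, where it was 0.011. Fosl2 had 2.43, 1.66 and 3.53 FPKM with BSA and 3.45, 3.54 and 2.43 with PA, and its interval was wide, from -0.40 to 1.05.

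Among the low Fos genes, Fosl1 had the largest difference of the 8 members. The PA mean of 0.639 ± 0.328 FPKM stood against 0.273 ± 0.101 with BSA (SD, n = 3 each). In the model without the filter the log2 fold change was 1.25 (SE 0.46, 95% interval 0.23 to 2.27, or 1.17-fold to 4.83-fold), with an unadjusted p of 0.0210 and an adjusted p of 0.0623 in edgeR. It thus met the fold rule in that model, though not in the main test, from which it was filtered. PA replicate 3, at 0.361 FPKM, lay below BSA replicate 1, at 0.388. Fosl1 was called by DESeq2 (adjusted p = 0.0441), without BSA replicate 1 (log2 fold change 1.60, adjusted p = 0.0444 in edgeR) and without PA replicate 3 (1.53, adjusted p = 0.0327), and its adjusted p ran from 0.0327 to 0.291 over the alternatives. Fosb had a log2 fold change of 0.63 with a 95% interval from -0.30 to 1.56. That of Fos was 0.0032, from -0.76 to 0.76, an interval that leaves room for a change of up to 1.70-fold.

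**Figure D2:**
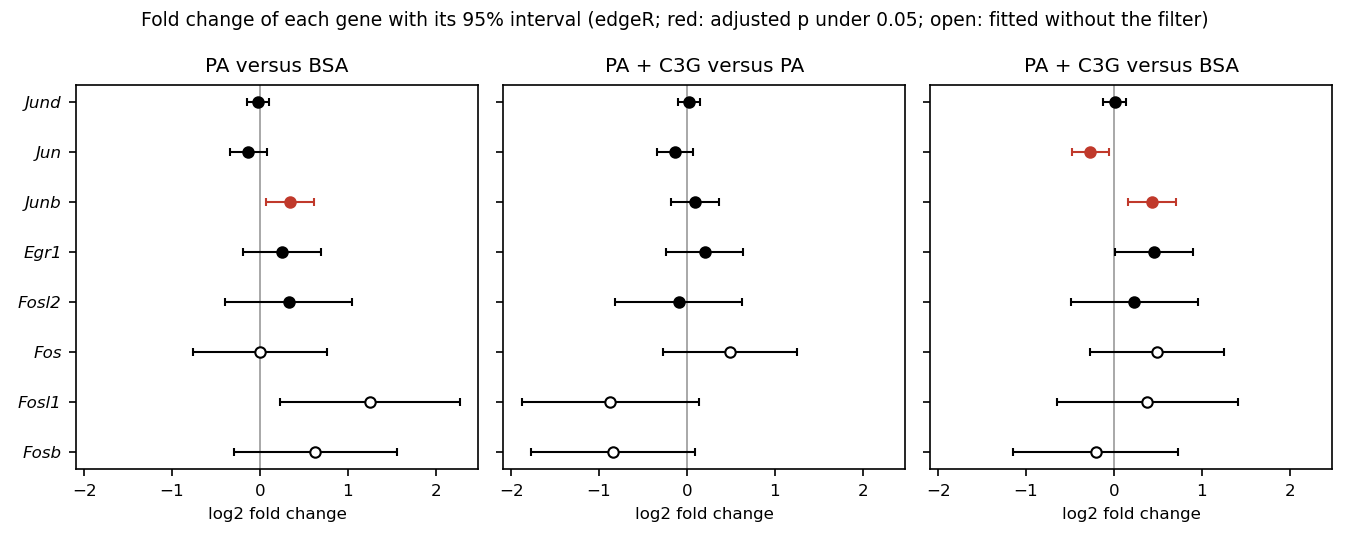
Log2 fold change (horizontal axes) of each gene in the 3 comparisons with its 95% interval from edgeR, red where the adjusted p is under 0.05 and open where the gene was fitted without the filter on low values. Junb is red at 0.34 in PA versus BSA, no gene is red in PA + C3G versus PA, and Junb (0.44) and Jun (-0.27) are red in PA + C3G versus BSA.

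PA + C3G versus PA asked what the anthocyanin changed in the presence of the fatty acid. None of the 5 members tested was called by edgeR, and none at an unadjusted p under 0.05, beside 21.2% of all genes tested. DESeq2 and limma also called none. Of all genes, 11.1% were called higher and 10.2% lower (1436 and 1316 genes), a split of 775 up against 2525 down when TPM scaling was used and of 1065 against 1636 in limma. The fold rule was met by 1.13% of all genes and by no member. The fold changes of the tested members ran from -0.14 to 0.20 on the log2 scale.

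Junb, which had risen with PA, had 9.98, 10.9 and 12.4 FPKM with PA + C3G (11.1 ± 1.21), overlapping the PA libraries. Its log2 fold change was 0.10 (SE 0.12, 95% interval -0.18 to 0.37, adjusted p = 0.629 in edgeR), so a fall below 0.885-fold lay outside the interval. Jun had 13.0, 11.3 and 12.7 FPKM with PA + C3G, and all 3 values lay under the lowest PA value of 13.3. This was the sole member whose groups did not overlap, beside 39.5% of all genes tested, and its log2 fold change of -0.14 (SE 0.09, 95% interval -0.34 to 0.07) had an adjusted p of 0.335 in edgeR. Egr1 had 10.3, 12.5 and 11.8 FPKM with PA + C3G, overlapping PA, with a log2 fold change of 0.20 (95% interval -0.24 to 0.64). Jund differed by 0.026 (-0.10 to 0.15), a value that became -0.064 under TPM scaling and -0.013 with limma. Fosl2, at 3.22, 3.50 and 1.88 FPKM, differed by -0.09 (-0.82 to 0.63).

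The 3 low Fos genes also failed the test for C3G. The log2 fold changes in the model without the filter were -0.87 for Fosl1 (95% interval -1.88 to 0.14, adjusted p = 0.299 in edgeR), -0.84 for Fosb (-1.77 to 0.10, adjusted p = 0.276) and 0.49 for Fos (-0.27 to 1.25, adjusted p = 0.451). For each of them the PA and PA + C3G libraries overlapped. Changes within those intervals were not excluded by these values.

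PA + C3G versus BSA set both treatments together against the control, and shares the BSA libraries with the first comparison. Junb rose by 0.44 on the log2 scale (SE 0.12, 95% interval 0.16 to 0.71), or 1.35-fold, with an adjusted p of 0.0187 in edgeR, and every PA + C3G library lay above every BSA library. Jun fell by 0.27 on the log2 scale (SE 0.09, 95% interval -0.47 to -0.06), to 0.831-fold, with an adjusted p of 0.0463 in edgeR, and every PA + C3G library lay below every BSA library. Egr1 had a log2 fold change of 0.46 (SE 0.20, 95% interval 0.02 to 0.90), with an unadjusted p of 0.0440 and an adjusted p of 0.0984 in edgeR. Its groups were separate by a narrow margin, since the highest BSA value was 10.2 FPKM and the lowest PA + C3G value 10.3. Of the 5 members tested 2 were called, beside 36.9% of all genes tested (19.0% higher and 17.9% lower, that is 2462 and 2321 genes, against 1891 and 3038 by TPM scaling and 1850 and 3091 by limma). Groups did not overlap for 3 of the 8 members, Jun, Junb and Egr1, beside 50.3% of all genes tested, against 0 of 8 members and 59.9% in PA versus BSA. The fold rule was met by 4.63% of all genes and by no member.

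These calls rested on few libraries. The Junb call was lost without BSA replicate 2 (log2 fold change 0.34, adjusted p = 0.0666 in edgeR) and without PA + C3G replicate 3 (0.35, adjusted p = 0.0759), with adjusted p-values from 0.00184 to 0.0759 over the alternatives. The Jun call was lost without BSA replicate 1 (-0.20), BSA replicate 3 (-0.27), PA replicate 2 (-0.27), PA replicate 3 (-0.27), PA + C3G replicate 2 (-0.21) or PA + C3G replicate 3 (-0.30), without the filter and with only 2 groups in the fit, with adjusted p-values from 0.00723 to 0.149. Jund differed by 0.0073 (95% interval -0.12 to 0.13), Fosl2 by 0.23 (-0.49 to 0.96), Fos by 0.49 (-0.27 to 1.25), Fosl1 by 0.38 (-0.64 to 1.41) and Fosb by -0.21 (-1.14 to 0.73), none of which passed the test. The Jund value was -0.053 under TPM scaling and -0.055 with limma.

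Since FPKM is per length, the levels of the 7 Fos and Jun genes can be added up as a description of their mRNA make-up. Jund made up 81.2% ± 1.29 of the sum with BSA, 79.8% ± 1.10 with PA and 80.4% ± 1.31 with PA + C3G (SD, n = 3 each). The sum itself was 147 ± 9.42, 145 ± 2.84 and 142 ± 7.70 FPKM. The 4 Fos genes together reached 3.73 ± 0.935 FPKM with BSA, 4.76 ± 1.05 with PA and 4.37 ± 0.986 with PA + C3G, so Jun family mRNA exceeded Fos family mRNA by 39.8, 30.6 and 32.8 times on average. In every library the Jun genes were thus in large excess, and Fosl2 was the most abundant Fos gene.

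In the same sum of 7 genes the share of Jun was 10.5% ± 0.633 with BSA, 9.59% ± 0.521 with PA and 8.65% ± 0.491 with PA + C3G, and that of Junb was 5.80% ± 0.291, 7.35% ± 0.947 and 7.82% ± 1.17. The ratio of Jun to Junb FPKM, a measure picked after the values were seen and so given with no test, was 1.86, 1.82 and 1.77 in the BSA libraries. It was 1.62, 1.16 and 1.20 in the PA libraries and 1.30, 1.03 and 1.03 in the PA + C3G libraries. All 6 libraries with PA lay below all 3 BSA libraries, while the PA and PA + C3G libraries overlapped. The mean log2 ratio differed by -0.47 for PA minus BSA, by -0.24 for PA + C3G minus PA and by -0.70 for PA + C3G minus BSA. BSA replicate 2, in which both genes were lowest of the group, had a ratio between those of the other BSA libraries.

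**Figure D3:**
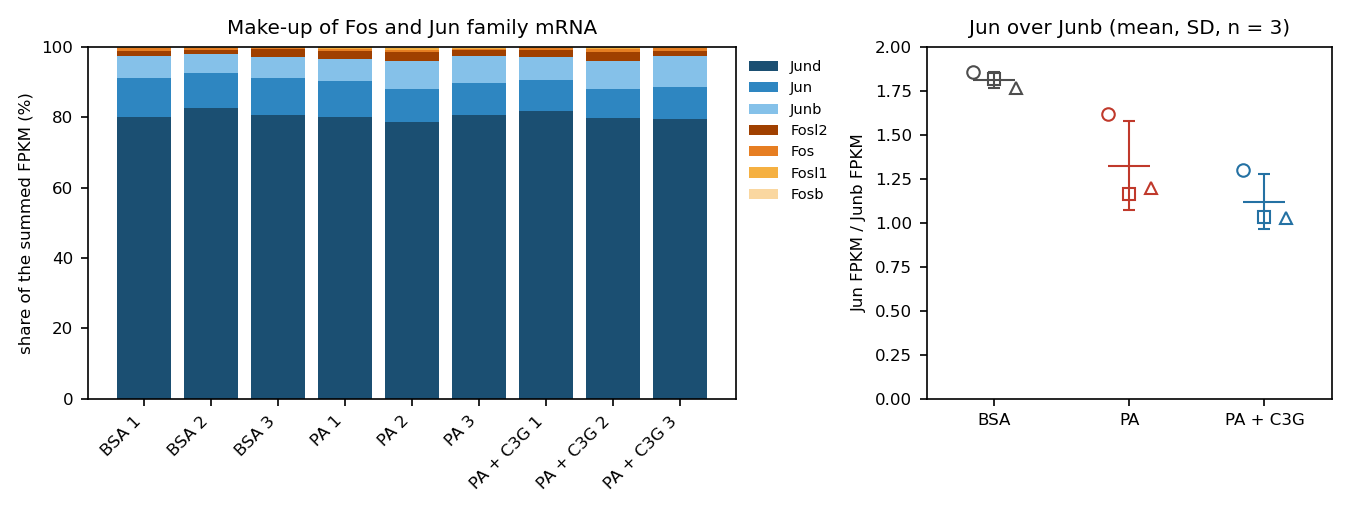
Left, share (%) of each Fos and Jun gene in the summed FPKM of the 7 genes, stacked by library, with Jund at about 80% of every bar. Right, Jun FPKM over Junb FPKM by library (symbols for replicates 1, 2 and 3, bar for the mean, error bars for the SD, n = 3), with BSA at 1.77 to 1.86, PA at 1.16 to 1.62 and PA + C3G at 1.03 to 1.30.

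Libraries of the same group also differed, in the same direction for several members. BSA replicate 2 was the lowest BSA library for 6 of the 8 members, whereas it was lowest for 39.0% of all genes tested, and BSA replicate 1 was the highest for 7 of the 8, beside 35.3% of all genes. BSA replicate 2 also had the highest share of FPKM from mitochondrial genes, 17.1% against 15.0% to 16.4% in the other libraries, and the part of this in the results was not tested. Without that library the log2 fold change of Egr1 was 0.037 in PA versus BSA and 0.24 in PA + C3G versus BSA, compared with 0.25 and 0.46 with it. In the PA and PA + C3G groups no library was lowest for more than 3 of the 8 members, and PA + C3G replicate 2 was the highest of its group for 5.

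The genes whose pattern over the 9 libraries was most like that of a member were found by the root mean square difference of log2(FPKM + 1) deviations from each gene's own mean. For Egr1 the nearest of all tested genes was Nr4a1, the nuclear receptor Nur77 and itself an immediate early gene, at 0.15 against a median of 0.32 over all genes, and then AABR07036746 at 0.15. Nr4a1 had 3.64 ± 1.64 FPKM with BSA, 4.90 ± 0.671 with PA and 4.65 ± 0.281 with PA + C3G and was not called in any comparison. For Junb the nearest genes were Gem, a small GTPase of the Rad and Gem family, and Tmem108, at 0.079 and 0.080 against a median of 0.26. Jun was nearest to Mob1b (0.045) and Cdk16 (0.049), with a median of 0.22. Jund was nearest to Akr1a1 and Eif5, at 0.032 and 0.035, with a median of 0.17. Fosl2 was nearest to Cyp4f6 (0.11) and Gm26330 (0.12), with a median of 0.33. The named genes are the nearest by selection, so a distance under the median was fixed in advance. A gene flat over all libraries would stand at the member's own SD. That SD was 0.27 for Egr1, 0.19 for Junb, 0.16 for Jun, 0.066 for Jund and 0.29 for Fosl2. These likenesses describe 9 libraries only.

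Other immediate early genes, which share this rapid kind of control, were called in both directions with PA. Of the 38 listed symbols, 36 were in the table and 27 were tested, and with PA 5 rose, 8 fell and 14 did not pass, beside the 51.0% of all genes called. The median log2 fold change was 0.0091, against 0.0030 over all genes tested. The largest rises were in the phosphatases of MAP kinases Dusp4 and Dusp6, which act on ERK, and in the small Maf factor Maff. Dusp4 rose from 9.02, 7.44 and 9.22 FPKM to 39.2, 33.0 and 35.7, a log2 fold change of 2.10 (SE 0.11, adjusted p = 2.85e-07 in edgeR). Dusp6 rose from 0.947 ± 0.164 to 2.93 ± 0.328 FPKM (log2 fold change 1.65) and Maff from 3.26 ± 0.387 to 9.96 ± 0.345 (1.63). Dusp6 averaged under 1 FPKM with BSA and passed the filter only through the groups given PA, in which it was high. The largest falls were in Klf10, a zinc finger gene induced by TGF-beta, in Klf2 and in Dusp1, the phosphatase that turns off JNK and p38. Klf10 fell from 69.7, 57.1 and 66.3 FPKM to 28.5, 28.0 and 26.7, a log2 fold change of -1.19 (SE 0.07, adjusted p = 7.31e-07 in edgeR). Klf2 went from 8.20 ± 1.01 to 3.78 ± 0.257 FPKM (-1.09) and Dusp1 from 54.6 ± 1.19 to 25.6 ± 0.713 (-1.07). All 3 libraries with PA lay outside the BSA range for each of these 6 genes, which were picked by the size of their change. Groups did not overlap for 59.9% of all genes tested. Atf3 (0.88) and Per1 (0.22) also rose. Some listed genes that were not tested had low BSA and PA means that did not overlap. Nr4a3 (0.518 and 1.65 FPKM), Npas4 (0.331 and 0.641) and Ccn1 (0.385 and 0.792) were higher with PA. Ptgs2 (0.0875 and 0.0220) was lower, and the rest overlapped.

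With C3G, 5 of these 27 genes rose and 2 fell against PA, beside 21.2% of all genes called, and the median log2 fold change was -0.020. Klf2 rose to 6.60 ± 1.27 FPKM (log2 fold change 0.84, adjusted p = 0.00677 in edgeR), Arc, a synaptic immediate early gene, rose from 5.02 ± 0.454 to 7.69 ± 0.693 (0.65) and Klf10 rose to 39.6, 37.0 and 39.7 FPKM (0.52). The 2 others that rose were Dusp1 (0.30) and the growth inhibitor Btg2 (0.22). Arc, Klf2, Klf10, Dusp1 and Btg2 had each fallen with PA, in a comparison that shares the PA libraries. Myc, the growth factor-induced oncogene, fell from 43.5 ± 1.77 to 26.9 ± 1.96 FPKM (-0.65, adjusted p = 0.000329 in edgeR), and its BSA level was 39.7 ± 2.92. Maff fell to 6.90 ± 0.653 (-0.49). The count of falls became 5 under TPM scaling. Of the listed genes that were not tested, Nr4a3 (mean 0.704 FPKM) and Npas4 (0.248) lay below PA without overlap. The rest overlapped, while groups did not overlap for 39.5% of all genes tested.

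**Figure D4:**
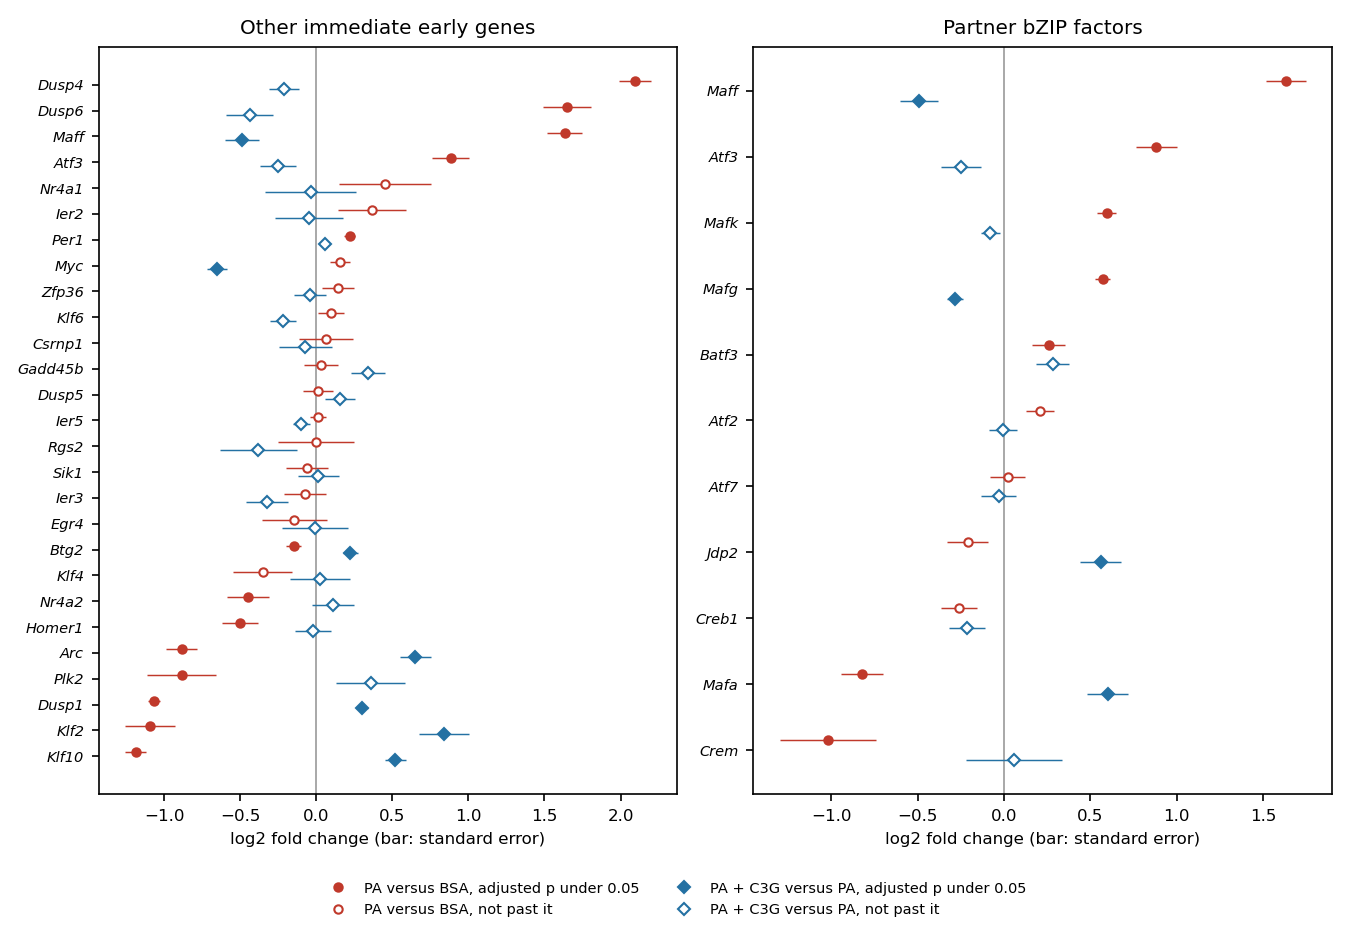
Log2 fold change (horizontal axes, bars for the standard error from edgeR) of the tested immediate early genes outside the AP-1 list (left) and of the bZIP genes that can pair with AP-1 or bind related sites (right), in PA versus BSA (red circles) and PA + C3G versus PA (blue diamonds), filled where the adjusted p is under 0.05. Dusp4 stands highest at 2.10 and Klf10 lowest at -1.19 on the left for PA, and Crem lowest at -1.02 on the right, where 1 tested gene is not plotted.

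Partner bZIP factors bind with Fos or Jun proteins or to related sites, and 12 of the 15 in the table were tested. With PA 5 rose and 3 fell, beside 51.0% of all genes called, with a median log2 fold change of 0.11, and the rises were in Maff (1.63), the stress-induced Atf3 (0.88), Mafk (0.59), Mafg (0.57) and Batf3 (0.26). Atf3 had 6.69 ± 1.01 FPKM with BSA, 12.1 ± 1.08 with PA (SE of the log2 fold change 0.12, adjusted p = 0.000185 in edgeR) and 9.94 ± 0.956 with PA + C3G. Maff and Atf3 also belong to the immediate early list. Maff, Mafg and Mafk are small Maf proteins, which lack an activation domain. Among the falls were Mafa (-0.82), which activates the insulin gene, and the cAMP responsive Crem (-1.02). Mafa fell from 381 ± 6.53 to 212 ± 30.1 FPKM (adjusted p = 0.000330 in edgeR).

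With C3G 3 of the 12 rose and 2 fell, beside 21.2% of all genes called, with a median of -0.019. Mafa rose to 313 ± 51.1 FPKM (log2 fold change 0.60, adjusted p = 0.00791 in edgeR) and Jdp2, a bZIP repressor that pairs with Jun proteins, rose from 5.87 ± 0.186 to 8.44 ± 0.765 (0.56). Maff (-0.49) and Mafg (-0.28) fell.

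Kinases and activators upstream of the AP-1 and Egr1 genes act mainly through phosphorylation, which mRNA levels do not show. The table held 29 and 27 were tested, and with PA 6 rose and 8 fell, with a median log2 fold change of -0.079. The share called was 51.9%, close to the 51.0% of all genes. Ets1 (0.67), the stress kinase Map3k5 (0.61) and Ets2 (0.44) had the largest rises. Elk3 (-0.67), the ERK1 gene Mapk3 (-0.51) and the JNK3 gene Mapk10 (-0.45) had the largest falls. Mapk3 went from 109 ± 0.872 to 75.4 ± 4.48 FPKM (adjusted p = 1.65e-05 in edgeR) and Ets2 from 33.9 ± 1.62 to 45.1 ± 1.64 (adjusted p = 3.61e-05). Ets1 lost its call without BSA replicate 2 (0.53), BSA replicate 3 (0.68), PA replicate 1 (0.58) or PA replicate 3 (0.65) and with limma, and Mapk10 without BSA replicate 1 (-0.35) or PA replicate 2 (-0.39). The number of falls was 5 without BSA replicate 1.

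With C3G 6 of these 27 rose and 4 fell against PA, beside 21.2% of all genes called, with a median of 0.039. Elk3 (0.70), Mapk10 (0.69) and Mapk3 (0.27) rose most, and Map3k1 (-0.29), Braf (-0.25), the ERK kinase Map2k1 (-0.22) and the p38 target Mapkapk2 (-0.19) fell. Map2k1 had 43.2 ± 0.555 FPKM with BSA, 56.2 ± 2.27 with PA and 47.0 ± 1.22 with PA + C3G. Braf lost its call without BSA replicate 3 (-0.26), PA replicate 2 (-0.19), PA replicate 3 (-0.27), PA + C3G replicate 1 (-0.21) or PA + C3G replicate 3 (-0.26), and also with no filter (adjusted p = 0.0593 in edgeR) and with only 2 groups in the fit (0.0611), over a range from 0.0131 to 0.129. The number of rises was 3 under TPM scaling and limma and without PA replicate 2, PA replicate 3, PA + C3G replicate 1 or PA + C3G replicate 3, and the number of falls was 2 without PA replicate 2 or PA replicate 3. The EGR corepressors Nab1 and Nab2, which bind Egr1 and curb it, were not called in PA versus BSA or in PA + C3G versus PA. In PA + C3G versus BSA Nab2 was called higher (log2 fold change 0.34, adjusted p = 0.0279 in edgeR), beside 19.0% of all genes. Nab2 had 6.23 ± 0.831 FPKM with PA and 7.42 ± 0.122 with PA + C3G, and by edgeR 1 of the 2 genes had an unadjusted p under 0.05 there and 0 with PA, while DESeq2 called 1 for C3G. Without BSA replicate 1 edgeR called 1 of them with PA, and without PA replicate 2 or with a replicate block it called 1 for C3G.

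Of 22 genes that textbooks name as AP-1 targets, 15 were listed and 10 were tested. With PA 4 rose and 1 fell, with a median log2 fold change of 0.18, so that 50% were called beside 51.0% of all genes. Ccnd1, which encodes cyclin D1, rose from 0.350 ± 0.0917 to 2.59 ± 0.0599 FPKM (log2 fold change 2.91, SE 0.20, adjusted p = 1.95e-06 in edgeR). The metalloproteinase inhibitor Timp1 rose from 0.850 ± 0.163 to 2.14 ± 0.680 FPKM (1.35), Tgfb1 from 2.69 ± 0.105 to 5.88 ± 0.669 (1.15) and the pro-apoptotic BH3-only gene Bcl2l11 by 0.24. Ccnd1 and Timp1 averaged under 1 FPKM with BSA. They passed the filter only through the groups given PA, in which they were high, so the count of rises depends on the filter. The cell cycle inhibitor Cdkn1a fell from 18.8 ± 2.34 to 13.1 ± 1.97 FPKM (-0.50). With C3G none of the 10 rose in edgeR, beside 21.2% of all genes called in either direction, though 2 had an unadjusted p under 0.05, DESeq2 called 2 and edgeR with a replicate block called 1. Bcl2l11 fell from 10.4 ± 0.165 to 8.68 ± 0.267 FPKM (-0.22, adjusted p = 0.0114 in edgeR). The number of rises with PA was 2 at a mean FPKM of at least 5. The number of falls with PA was 2 without BSA replicate 2 or PA replicate 1. These genes also answer to many other factors, and AP-1 binding was not measured.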

How the data were processed

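RNA-seq was read for 9 INS-1E libraries. The authors deposited estimated counts per gene without normalization and FPKM, scaled to transcript length and mapped fragments. The submitters' processing notes name cutadapt 1.9, HISAT2 2.0.4, StringTie 1.3.4d, DESeq2 and edgeR, and the genome build is not given in the sources used here. Counts were rounded and fitted with edgeR 4.0.16 in R 4.3.3 (TMM, quasi-likelihood test, all 9 libraries in 1 model, Benjamini-Hochberg adjustment over 12958 genes whose FPKM averaged 1 or more). A gene was called at an adjusted p under 0.05, and p-values are two-sided. Fold changes of Fos, Fosb and Fosl1 came from the model without the filter. The members and lists were chosen with earlier results of these data known. From each list, called genes were named, at most 3 rises and 3 falls per comparison. Some counts of 5 or fewer were also named in full. For each tested member the 2 genes with the most similar pattern were named. Alternatives were DESeq2 1.42.0, its size factors in edgeR, TPM scaling, limma 3.58.1 on log2(FPKM + 1) and log2(FPKM + 0.1), no filter, an average FPKM of 5 or more, 2 groups only, a replicate block, counts divided by 4, and leaving out each library. The test was checked on simulated data in which few genes changed, with as many rises as falls. That check does not cover a setting such as PA versus BSA, where 51.0% of all genes tested were called. Protein sequences were not used here, and 1 gene of the partner bZIP list is not reported here.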

Additional observations from a re-analysis of the deposited data

How the results depend on the processing

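The number of members called in PA versus BSA was 1, and was 0 with limma on log2(FPKM + 1) (Junb adjusted p = 0.0526), with limma on log2(FPKM + 0.1) (0.0524) and with no filter (0.0543, edgeR); leaving out 1 library gave 0 to 1, and without BSA replicate 2 the 1 member called was Jun, not Junb. In PA + C3G versus BSA it was 2, and was 1 with no filter and with only the 2 groups compared, and 0 to 2 when 1 library was left out. In PA + C3G versus PA it was 0 under every alternative run. The number of all genes called in PA + C3G versus PA was 2752, and leaving out 1 library gave 1718 (without PA replicate 3) to 2838. The counts of all genes called in the other comparisons stayed within 1.5 times of 6614 and 4783 under every alternative.

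Small differences changed sign, and the cause was not tested. Fos in PA versus BSA (0.0032) was -0.014 and -0.038 with limma at the pseudocounts of 1 and 0.1, -0.0015 with only 2 groups and -0.20 to 0.29 when 1 library was left out. Leaving out 1 library gave -0.26 to 0.13 for Fosl2 in PA + C3G versus PA and -0.0056 to 0.53 in PA + C3G versus BSA. Jund was 0.011 under TPM scaling and -0.068 to 0.0035 when 1 library was left out in PA versus BSA. In PA + C3G versus PA Jund was -0.064 under TPM scaling, -0.013 with limma at either pseudocount and -0.038 to 0.054 when 1 library was left out. In PA + C3G versus BSA Jund was -0.053 under TPM scaling, -0.055 and -0.056 with limma at the pseudocounts of 1 and 0.1, -0.0029 at a mean FPKM of at least 5, -0.00062 with counts divided by 4, and -0.062 to 0.030 when 1 library was left out.

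Correlations of the deviations of same-numbered libraries ran from -0.0473 to 0.105. They cannot tell whether libraries of 1 number shared a culture or batch, and the labels do not say so. With a replicate block the calls among members were 1, 0 and 2 in the 3 comparisons, as without it, and all genes called were 6843, 3118 and 5058. Fos in PA versus BSA became -0.010 with the block, the Braf call was lost (adjusted p = 0.0556 in edgeR), and falls among the other immediate early genes with C3G were 4. The block gave 1 rise each among the EGR corepressors and the textbook AP-1 targets with C3G, against 0 without it. With the block 3 textbook AP-1 targets fell with PA, and 2 did with DESeq2 or no filter.

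Estimated counts ran lowest for Fos, Fosl1 and Fosb. Divided by 4, their counts are 4.25 to 30.3 per library, and those of Fosl2 are 17 to 46.5. The part of depth in the wide intervals of these genes was not tested.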
